A study of Mus musculus with 16 samples.

Results

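H3K4me3 peaks that lie at least in part under H3K27me3 were followed from quiescent to activated mouse muscle stem cells. The regions described are the H3K4me3 narrow peaks of quiescent cells (QSC) that overlapped an H3K27me3 narrow peak of QSC by at least 1 bp. They are called members in the plots and numbered 545 of the 14354 QSC H3K4me3 narrow peaks, or 3.80%, and the 13809 peaks with no such overlap are the peaks they are compared with. They were thus chosen by their QSC peaks of both marks, and their QSC values are a description only. The values to compare are the calls of both marks at the same places in activated cells (ASC), which the choice did not use.

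The cells came from skeletal muscle of C57BL/6 mice and are labelled as muscle stem cells, also called satellite cells. Every group shared this strain, tissue and cell type, and the groups differed in state (QSC or ASC) and in the antibody (H3K4me3 or H3K27me3). The series holds 16 samples, with 2 immunoprecipitated replicates and their 2 inputs for each state and mark. The labels do not state age, genotype, the number of animals or how cells were isolated and brought to the activated state. The labels name 1 narrow and 1 broad peak list for both replicates of a state and mark, so the spread between replicates cannot be seen, no comparison of the states carries a test, and read depth is unknown from these lists.

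H3K4me3 is set by Trithorax-type methyltransferases at the starts of active and poised genes, where it is favoured by unmethylated CG-rich DNA. H3K27me3 is set by Polycomb repressive complex PRC2, whose catalytic subunit is EZH2 or EZH1, and is found at genes held silent. Promoters with both marks, called bivalent, were described in embryonic stem cells at regulators of development, and in satellite cells the Polycomb and Trithorax systems are known to act on lineage genes. A peak of each mark at the same place in a pool of cells does not show that both marks sat on the same allele or in the same cell, and more cells with a mark cannot be told apart from more of the mark per cell.

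The labelled cell type was set against its markers. All 9 satellite cell markers looked up, Pax7, Myf5, Calcr, Cdh15, Vcam1, Itga7, Sdc4, Cxcr4 and Chrdl2, had a QSC H3K4me3 narrow peak at a gene end. None of them had a QSC H3K27me3 narrow peak there or lay at the 545 peaks. Of all genes with QSC H3K4me3, 3.46% lay at the 545 peaks, so finding none among 9 does not set these markers apart. In ASC, 2 of the 9 markers (Cdh15 and Chrdl2) had an H3K27me3 narrow peak at a gene end. An ASC H3K27me3 narrow peak touched 8.99% of all QSC H3K4me3 peaks. Over all protein-coding genes, 11916 of 21887 had a QSC H3K4me3 narrow peak at a gene end, so such a peak is common. Of markers of other cells of muscle, a QSC H3K4me3 peak lay at 2 of 20 immune genes, 5 of 17 endothelial genes, 8 of 18 fibro-adipogenic genes, 9 of 13 pericyte and smooth muscle genes and 7 of 13 Schwann and glial genes. Their part in the results was not tested, and values for those at the 545 peaks are given below.

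The promoters below stand for what became of these places in ASC. Gsc and Esrrb kept both marks in the ASC narrow lists, Gata2 and Cdk6 had H3K4me3 alone, and Twist1 had H3K27me3 alone over the place of its QSC peak. Each sequence is the RefSeq promoter on GRCm38.p6, from 250 bases before to 50 after the gene start, with CG dinucleotides in capitals.
Gsc (chr12:104473187-104473486, minus strand): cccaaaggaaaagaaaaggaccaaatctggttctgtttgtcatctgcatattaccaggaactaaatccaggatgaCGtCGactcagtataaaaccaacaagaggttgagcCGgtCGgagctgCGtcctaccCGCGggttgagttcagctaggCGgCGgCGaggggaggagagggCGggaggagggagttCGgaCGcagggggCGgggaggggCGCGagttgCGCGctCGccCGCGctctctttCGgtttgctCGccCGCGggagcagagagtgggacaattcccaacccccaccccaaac
Esrrb (chr12:86421394-86421693, plus strand): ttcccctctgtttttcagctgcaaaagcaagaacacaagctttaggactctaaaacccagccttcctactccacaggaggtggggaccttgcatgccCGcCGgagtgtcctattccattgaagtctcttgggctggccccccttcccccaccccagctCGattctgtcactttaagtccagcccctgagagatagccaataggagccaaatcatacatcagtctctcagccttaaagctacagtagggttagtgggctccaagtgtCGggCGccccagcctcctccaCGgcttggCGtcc
Gata2 (chr6:88198414-88198713, plus strand): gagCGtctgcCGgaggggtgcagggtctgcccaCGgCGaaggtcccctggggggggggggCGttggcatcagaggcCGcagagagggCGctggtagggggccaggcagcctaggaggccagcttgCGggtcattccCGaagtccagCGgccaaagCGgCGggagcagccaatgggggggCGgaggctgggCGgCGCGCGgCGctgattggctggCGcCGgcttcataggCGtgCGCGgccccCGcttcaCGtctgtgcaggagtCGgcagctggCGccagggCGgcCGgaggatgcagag
Cdk6 (chr5:3343643-3343942, plus strand): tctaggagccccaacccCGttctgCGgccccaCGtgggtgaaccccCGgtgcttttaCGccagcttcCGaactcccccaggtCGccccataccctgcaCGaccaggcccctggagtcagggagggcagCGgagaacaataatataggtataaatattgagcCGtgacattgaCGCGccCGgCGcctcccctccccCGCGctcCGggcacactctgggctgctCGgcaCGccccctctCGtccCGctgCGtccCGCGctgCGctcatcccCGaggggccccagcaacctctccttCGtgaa
Twist1 (chr12:33957421-33957720, plus strand): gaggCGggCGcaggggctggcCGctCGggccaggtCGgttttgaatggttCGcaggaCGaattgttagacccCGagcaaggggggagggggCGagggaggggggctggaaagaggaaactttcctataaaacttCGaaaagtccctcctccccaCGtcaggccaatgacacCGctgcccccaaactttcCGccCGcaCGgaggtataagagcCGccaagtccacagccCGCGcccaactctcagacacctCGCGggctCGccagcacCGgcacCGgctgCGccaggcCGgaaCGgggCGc

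These 300-base promoters sat differently under the marks. At Twist1 all 300 bases lay under both marks in QSC, while in ASC all 300 lay under H3K27me3 and 0 under H3K4me3 narrow peaks. At Gsc 210 bases lay under H3K4me3 and 216 under H3K27me3 in QSC, and in ASC both marks covered all 300. At Cdk6 and Gata2 the promoter had 0 bases under QSC H3K27me3 narrow peaks, since their overlap with H3K4me3 lay to the side of the printed stretch. Esrrb had 7 CG dinucleotides in its 300 bases, against 25 at Gsc, 27 at Cdk6 and Twist1 and 29 at Gata2, so a CG-rich start was not shared by all.

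RefSeq promoters that overlapped the 545 peaks by at least 1 bp numbered 287. Their median GC content was 66.3%, with a median of 24 CG dinucleotides, against 62.3% and 23 at the 10726 promoters of the other H3K4me3 peaks. Promoters with QSC H3K27me3 and no H3K4me3 peak, 983 of them, had a median GC of 58.0% and 12 CG dinucleotides. All 21238 promoters had 56.3% and 13. The promoters at the 545 peaks were thus close to the other H3K4me3 promoters in CG dinucleotides.

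The motif GGGCGG, a core of the sites bound by Sp factors, was found on either strand in 75.3% of the 287 promoters, in 69.9% of the other H3K4me3 promoters and in 46.2% of all promoters of this length. GCGCGC was found in 35.9%, 29.3% and 17.9%. The E-box letters CAGCTG, in the form that myogenic factors bind, were found in 17.4%, 14.2% and 15.6%, and TATAAA in 8.01%, 5.63% and 12.6%. Motifs may overlap one another, and a match of letters is a description of the window and not a bound site.

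Within the QSC lists, the 545 peaks were low and short for H3K4me3 peaks. The fold is the authors' enrichment over background for a peak, and it is used only to describe or rank peaks of one list. Their H3K4me3 fold had a median of 5.56 and ran from 2.36 to 24.7, beside a median of 10.4 at the other peaks. Their length had a median of 1159 bp, from 272 to 5091 bp, beside 1527 bp at the other peaks. The H3K27me3 peak over them had a median fold of 5.47, from 2.58 to 11.5.

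The overlap of the marks was partial at most places. The shared stretch had a median of 452 bp, from 1 to 3420 bp, which was 42.3% of the H3K4me3 peak at the median. For 83 peaks (15.2%) the whole length lay under H3K27me3 in QSC. The 10 with most shared bases were at Zic1 (3420 bp), Tbx3 (2691 bp), a place outside protein-coding genes on chromosome 10 (2097 bp), Lef1 (2030 bp), Foxq1 (1963 bp), Hcn4 (1915 bp), Hoxa11 (1909 bp), Emx2 (1851 bp), Cyp26a1 (1842 bp) and Barx2 (1784 bp). Of the 9 genes named, 7 encode transcription factors of the embryo, Hcn4 encodes a pacemaker channel and Cyp26a1 an enzyme that breaks down retinoic acid.

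At the edge of the rule, Adamts2 and Chrm2 entered with 1 shared bp, Kcnh3 and Prr16 with 2 bp and a place at the noncoding gene Hotair with 4 bp. Just outside it, a peak at Plag1 missed by a gap of 1 bp, at B3gnt4 by 2 bp, at Mdga1 by 4 bp and at a place on chromosome 3 by 5 bp. In all, 54 of the 545 peaks shared under 100 bp, and 318 other peaks lay within 500 bp of a QSC H3K27me3 narrow peak.

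The places were not independent of one another. The 545 peaks touched 650 distinct H3K27me3 narrow peaks, 1.48% of that list, and 14 of these touched more than 1 of the 545. They fell in 526 broad H3K27me3 peaks, 42 of which held more than 1. A broad peak of 84453 bp over Pax3 held 3 of them.

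In ASC most of these places carried both marks. In the narrow lists both were called at 439 of 545 (80.6%), against 8.12% of all 14354 QSC H3K4me3 peaks. H3K4me3 alone was called at 54 (9.91%, against 86.8% of all), H3K27me3 alone at 52 (9.54%, against 0.864%) and neither at 0 (against 4.19%). Of the other 13809 peaks, 602 (4.36%) had neither mark in ASC.

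**Figure D1:**
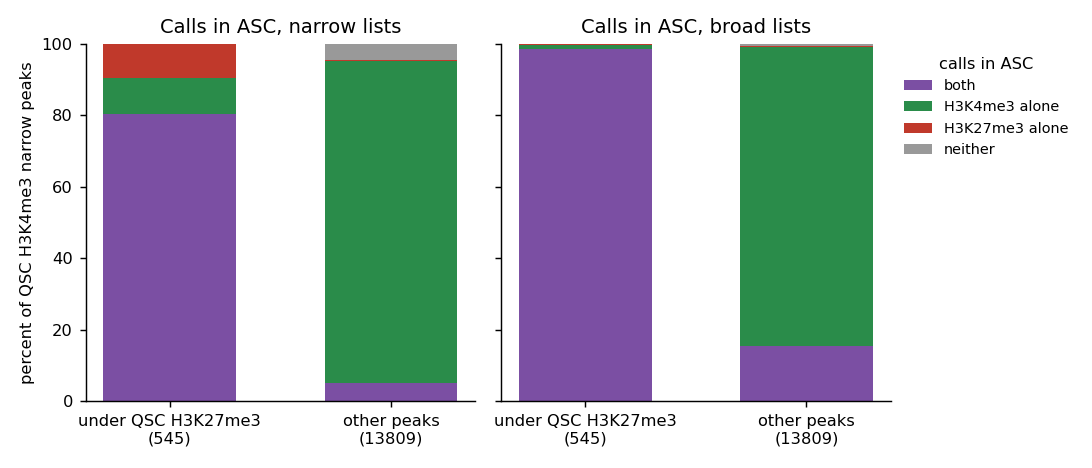
Stacked bars give the percent of QSC H3K4me3 narrow peaks in each class of calls in activated cells, for the 545 peaks under H3K27me3 in QSC and the 13809 others. The left panel uses the ASC narrow lists, where both marks are called at 80.6% and 5.26%, and the right panel the ASC broad lists, where they are called at 98.7% and 15.5%.

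Each mark was followed by itself. H3K4me3 was called in ASC at 493 of 545 (90.5%, against 94.9% of all QSC H3K4me3 peaks and 95.1% of the others). H3K27me3 was called in ASC at 491 (90.1%, against 8.99% of all and 5.79% of the others, which is 799 peaks). In the broad lists, which join weaker signal into long stretches, H3K4me3 was called at 543 (99.6%, against 99.3% of all) and H3K27me3 at 540 (99.1%, against 18.9% of all). The H3K4me3 shares lay near the background, while the H3K27me3 shares lay far above it in both kinds of list.

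The lower H3K4me3 share went with low QSC folds, as 4 ranges of fold split at the quartiles of the 545 show. In the lowest range, up to 4.52, H3K4me3 was called in ASC at 97 of 138 (70.3%) and at 66.9% of the other peaks in that range of fold. In the second, up to 5.56, it was called at 136 of 147 (92.5%), with 85.4% of the others. Above that, with a boundary at 7.26, it was called at all 131 and all 129 places, with 95.9% and 99.8% of the others. So the pooled difference, 90.5% below 95.1%, did not hold within any range. For H3K27me3 the order held in each range, at 94.2%, 93.2%, 91.6% and 80.6% of the 545 against 9.20%, 12.2%, 11.3% and 3.73% of the others.

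List size bears on these shares. The ASC narrow lists were larger, with 35.4 Mb of H3K4me3 against 24.4 Mb in QSC and 88.4 Mb of H3K27me3 against 53.8 Mb. With the ASC list of each mark held to the covered bases of QSC by its strongest peaks, H3K4me3 was called at 12.5% of the 545 and at 58.7% of the others, both marks at 6.97%, and neither at 44 places. H3K27me3 was called at 86.4% of the 545 under that setting and at 4.01% of the others. The 80.6% with both marks thus rests on ASC H3K4me3 peaks that this setting removes.

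H3K27me3 covered more of most of these H3K4me3 peaks in ASC than in QSC. The share of the QSC peak's length under H3K27me3 narrow peaks had a median of 42.3% in QSC and 88.8% in ASC. The ASC value was larger at 361 places (66.2%), smaller at 112 and equal at 72. The whole length lay under H3K27me3 at 226 places (41.5%) in ASC. The H3K4me3 summit lay under H3K27me3 at 225 places (41.3%) in QSC and 370 (67.9%) in ASC. With the lists held to the same number of peaks that ASC share was 67.2%, and with the same covered bases it was 65.3%. Both settings were added after seeing the data. The shares of length were not recomputed under these settings.

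The form of the overlap differed between the states too. In QSC, H3K27me3 lay over at least 90% of the H3K4me3 peak at 115 places, over part of it with the summit at 113, on both flanks without the summit at 48 and on a flank alone at 269 (49.4%). In ASC these numbers were 265, 106, 30 and 90, with none at the remaining 54. Where the gene's strand was known, the flank in QSC was the downstream side at 103 places and the upstream side at 66.

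Around 313 of the places, those with a stranded gene start within 1 kb, H3K27me3 was called less often over the H3K4me3 summit than 1 to 2 kb to either side. In QSC, 37.1% had H3K27me3 at the H3K4me3 summit, 32.9% at 200 bp upstream and 69.7% at 1400 bp downstream. In ASC, 64.2% had it at the summit, 58.2% at 200 bp upstream and 84.4% at 1600 bp downstream. At 2000 bp upstream it was 59.1% in QSC and 74.8% in ASC. Farther out it was lower again, at 39.6% in QSC and 47.3% in ASC at 5000 bp upstream and at 35.5% and 48.6% at 5000 bp downstream. The local low over the summit was present in both states, with more places covered at each of these distances in ASC.

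**Figure D2:**
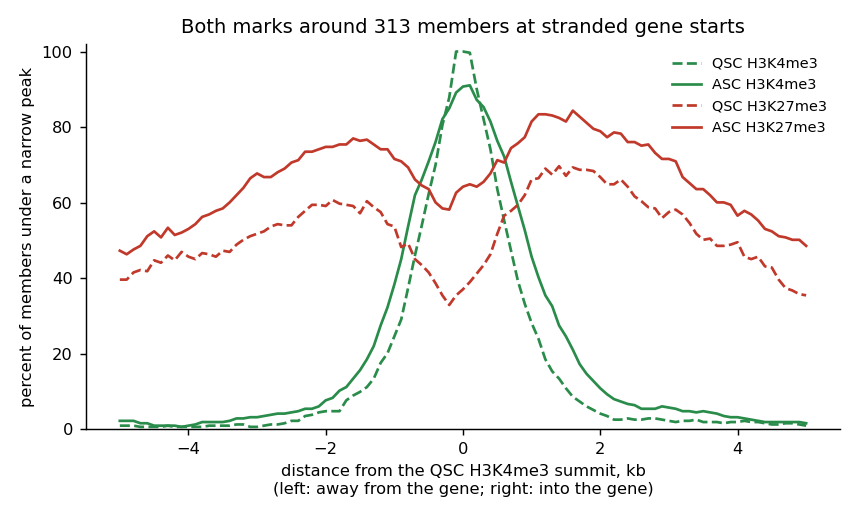
Lines give the percent of 313 places under a narrow peak of each mark, by distance in kb from the QSC H3K4me3 summit, with the gene to the right. Dashed lines are QSC and solid lines ASC, and H3K27me3 (red) has a local low near the summit, at 32.9% in QSC and 58.2% in ASC at 200 bp upstream.

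The 3 classes differed in their QSC values. The median QSC H3K4me3 fold was 5.78 where both marks were called in ASC, 7.04 with H3K4me3 alone and 3.87 with H3K27me3 alone, where the highest was 5.56. The median share of the peak under H3K27me3 in QSC was 43.3%, 17.8% and 98.5%. Places that later had H3K27me3 alone were thus weak H3K4me3 peaks, and 31 of the 52 lay at least 90% under H3K27me3 in QSC. The lowest share in that class was 3.04%. Most places with H3K4me3 alone overlapped H3K27me3 at the side. These ranges overlapped widely, and fold and length go together in a peak list.

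**Figure D3:**
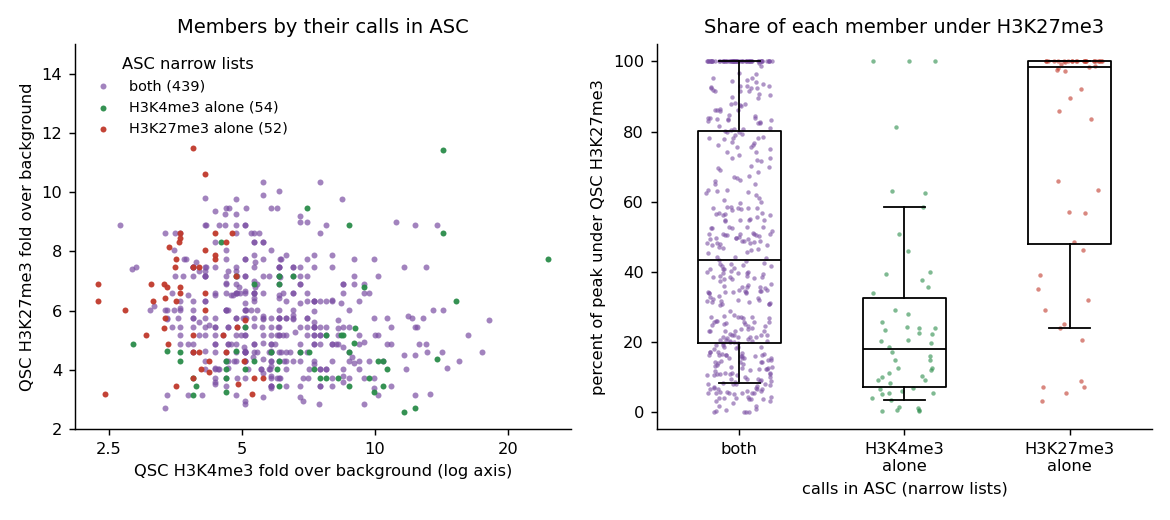
The left panel plots the QSC H3K27me3 fold against the QSC H3K4me3 fold (log axis) of the 545 places, coloured by their calls in ASC. The right panel gives the percent of each peak under H3K27me3 in QSC, as points with a box from the 25th to the 75th percentile, the median and whiskers at the 10th and 90th percentiles, with medians of 43.3%, 17.8% and 98.5%.

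Places with H3K4me3 alone in ASC were often near H3K27me3, while most places with H3K27me3 alone were far from an H3K4me3 narrow peak. Of the 54 places with H3K4me3 alone, 34 had an ASC H3K27me3 narrow peak within 1 kb, 42 had one within 5 kb and 49 were touched by an ASC broad H3K27me3 peak. Of the 52 with H3K27me3 alone, 9 had an ASC H3K4me3 narrow peak within 1 kb and 11 within 5 kb, and the median gap was 30350 bp. An ASC broad H3K4me3 peak touched 50 of them, but such a peak touched 99.3% of all QSC H3K4me3 peaks. For the ASC broad H3K27me3 list that share was 18.9%. Shares of all peaks within 1 or 5 kb of a narrow peak are not given here.

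Of the 545 peaks, 424 (77.8%) lay within 1 kb of a protein-coding gene start (or of either record end where the strand was not given), 81 (14.9%) inside a gene record only and 40 (7.34%) outside protein-coding records. For the other peaks these shares were 81.7%, 10.1% and 8.18%. The genes at the 545 peaks numbered 412, or 1.88% of 21887 protein-coding genes and 3.46% of the 11916 with a QSC H3K4me3 peak. At 20 genes there were 2 of the peaks, among them the developmental genes En2, Fgf8, Irx5, Lhx2, Lhx6, Osr1, Tbx18, Wnt2 and Wnt7b.

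Neural and regional factors and mesoderm and endoderm factors had the highest shares of the 23 gene lists, followed by endothelial markers with 3 of 5. Of 79 neural and regional factors, 27 had QSC H3K4me3 and 21 of these 27 lay at the 545 peaks, against 3.46% of all genes with QSC H3K4me3. Of 71 mesoderm and endoderm factors, 31 had QSC H3K4me3 and 21 lay at the 545 peaks. Of 34 Sox and T-box genes the numbers were 17 and 6, and of 39 Hox genes 20 and 4, a lower share than for the channel, guidance and Wnt lists described further on. The lists were drawn up with earlier results of these data known, and the QSC marks that chose the peaks fixed these counts, so they describe the set and support nothing further.

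**Figure D4:**
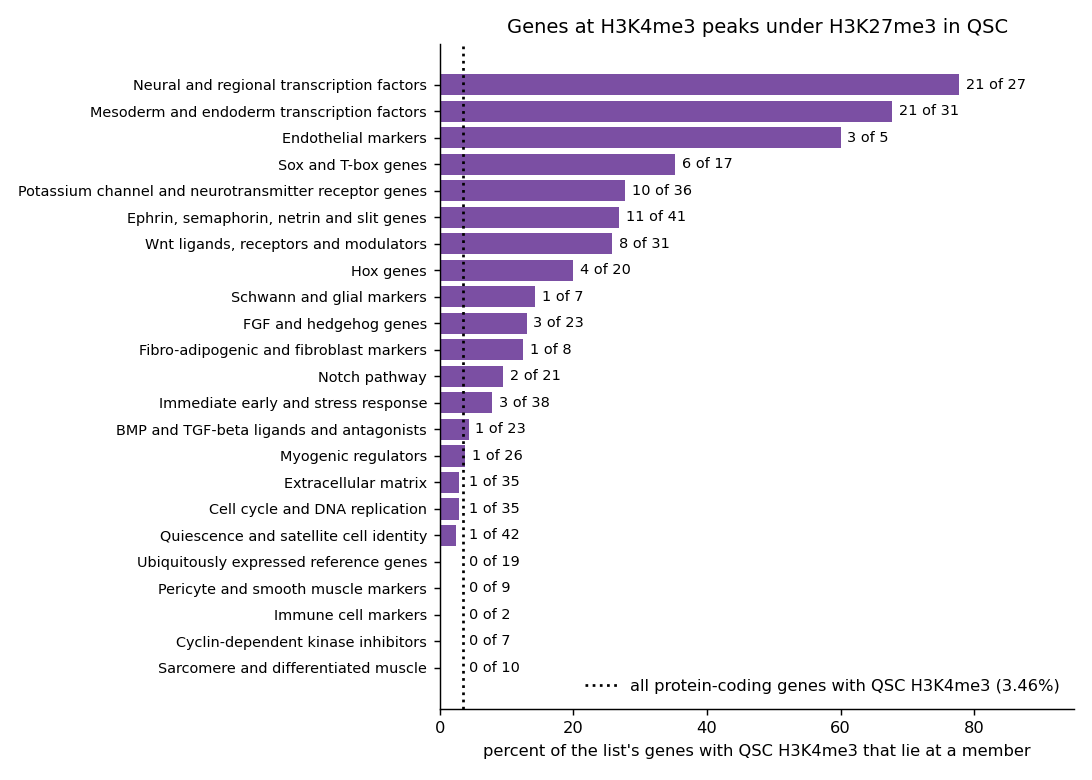
Bars give, for each gene list, the percent of its genes with a QSC H3K4me3 peak that lie at 1 of the 545 peaks, with both numbers written beside. The dotted line is the share over all protein-coding genes with QSC H3K4me3, 3.46%, and neural and regional factors (21 of 27) and mesoderm and endoderm factors (21 of 31) reach furthest.

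Among the neural factors, 19 of 21 genes had both marks in the ASC narrow lists, beside 337 of all 412 genes at the 545 peaks. Their 25 peaks had a median of 63.4% under H3K27me3 in QSC and 99.8% in ASC, beside 42.3% and 88.8% over all 545. At Zic1, a regulator of the dorsal neural tube and somites, the QSC H3K4me3 peak of 3913 bp lay 87.4% under H3K27me3 in QSC and 100% in ASC, where the H3K4me3 peak was 5044 bp long. At Otx1, a forebrain factor, 78.3% of a 941-bp peak was under H3K27me3 in QSC and 100% in ASC. At Isl1, a factor of motor neurons and heart progenitors, 496 of 902 bp were under H3K27me3 in QSC and 180 in ASC, so the direction was not uniform.

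Pou4f1, a sensory neuron factor, was a neural list gene with H3K27me3 alone in ASC. The Pou4f1 peak was 455 bp long with a QSC H3K4me3 fold of 4.35, and the nearest ASC H3K4me3 narrow peak was 778 bp away. It lay wholly under ASC H3K27me3.

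Of the 21 mesoderm and endoderm factors, 17 had both marks at every such peak in ASC. With Osr1 added, which had both marks at some but not all of its peaks, the number was 18. Counted in that way, 337 of all 412 genes at such peaks had both marks, a similar share, so keeping both did not set these factors apart. Gsc, the Goosecoid homeobox factor of the gastrula organizer, lay under the joint highest H3K27me3 peak of its class, with a fold of 10.3. Its QSC H3K4me3 peak of 711 bp lay wholly under H3K27me3 in both states, and in ASC the H3K4me3 peak was 1494 bp. Foxf1, a factor of visceral mesoderm, had an H3K27me3 fold of 8.99 and an H3K4me3 peak of 2384 bp in QSC against 2841 bp in ASC. At Gata6, a cardiac and endoderm factor that stood next to Gsc and Satb1 in H3K27me3 fold, the share of the 1994-bp peak under H3K27me3 was 85.8% in QSC and 100% in ASC.

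Tal1, the master factor of blood formation, had an H3K27me3 fold of 9.76 and was wholly under H3K27me3 in both states, with H3K4me3 peaks of 849 bp in QSC against 1582 bp in ASC. Msx1, a homeobox factor that holds back muscle differentiation, had a QSC H3K4me3 fold of 12.3, and its share under H3K27me3 was 38.0% in QSC and 88.1% in ASC. Lef1, a nuclear effector of Wnt signalling, went the other way, from 83.1% to 38.1%, with an H3K4me3 peak of 2444 bp in QSC against 4045 bp in ASC. Twist2, a factor that represses myogenic differentiation, kept both marks, with 65.9% of its peak under H3K27me3 in QSC and 62.1% in ASC.

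Gata2 and Gata3, factors of blood and trophoblast, and a peak at Osr1, a factor of kidney and connective tissue, had H3K4me3 alone in ASC. At Gata2 the H3K4me3 peak was 1115 bp in QSC against 4274 bp in ASC, and the 651 bp shared with H3K27me3 in QSC became 0, with an ASC H3K27me3 narrow peak 345 bp away. At Gata3 the peak was 1289 bp and 2706 bp, the shared stretch went from 292 bp to 0, and the nearest ASC H3K27me3 narrow peak was 61 bp away. The Osr1 peak had an ASC H3K27me3 narrow peak directly beside it, at a gap of 0 bp. In the broad ASC list H3K27me3 still covered 100% of the Gata2 and Osr1 peaks and 14.7% of the Gata3 peak.

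Twist1, which with Twist2 restrains myogenic factors, had H3K27me3 alone over its peak in ASC. Its 861-bp QSC H3K4me3 peak, fold 4.35, lay wholly under H3K27me3 in both states. An ASC H3K4me3 narrow peak began 284 bp further into the gene, and the ASC broad H3K4me3 list covered the whole printed promoter. Among places with H3K27me3 alone, Pax9, a factor of the vertebral column and teeth, lay under the highest H3K27me3 fold, 11.5, with a 404-bp peak of fold 3.87 and no ASC H3K4me3 narrow peak within 350108 bp.

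**Figure D5:**
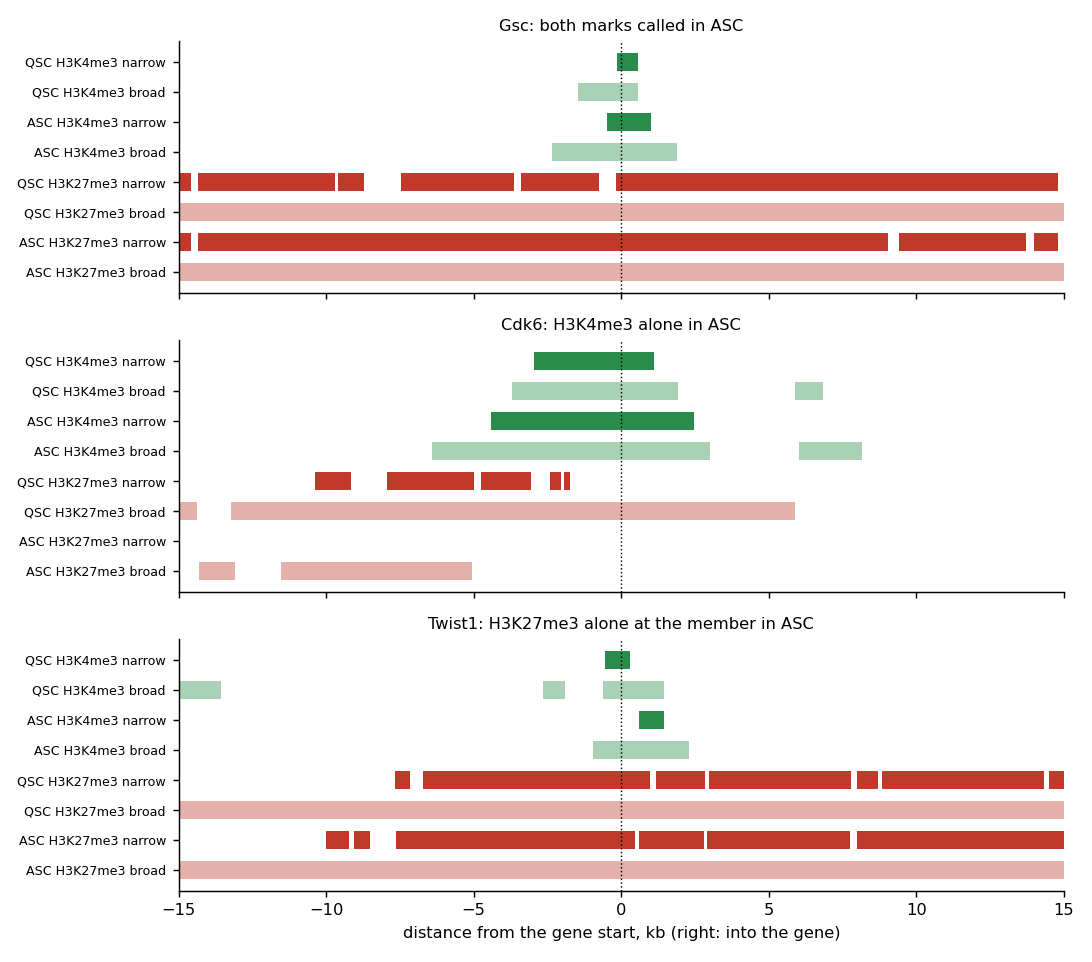
Peaks of both marks by distance in kb from the gene start at Gsc, Cdk6 and Twist1, with H3K4me3 in green, H3K27me3 in red, narrow lists in full colour and broad lists pale. Gsc has both marks in both states, Cdk6 has no ASC H3K27me3 peak over its start, and the ASC H3K4me3 narrow peak of Twist1 lies beside the place of the QSC one.

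Among the genes of the highest H3K27me3 folds with both marks in ASC were also Satb1, a chromatin organizer of T cells (10.3), Gfi1, a repressor of blood cells (9.80), Esrrb, an orphan nuclear receptor of pluripotent cells (9.47), Flt1, a receptor for VEGF (9.37), Myo5b, a myosin motor of vesicles (9.26), and Hcn4 (9.26). With H3K27me3 alone they were, after Pax9 and Twist1, Bhlhe22, a neuronal factor (8.61), Ccdc184 (8.32), Scn4b, a sodium channel subunit (8.32), Tmem132e (8.14), Pou4f1 (7.90), Slc27a2, a fatty acid transporter (7.75), Tmem163 (7.46) and Wnt7a (7.46). These QSC H3K4me3 peaks were low, with folds from 3.42 at Tmem132e to 4.60 at Ccdc184. At Tmem163 an ASC H3K4me3 narrow peak lay 53 bp away.

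With H3K4me3 alone the highest H3K27me3 folds were at Zranb2, a splicing factor (11.4), Gata2 (9.47), Cadm1, an adhesion molecule (8.90), Ccnj, a cyclin (8.61), Cacna1b, a calcium channel (8.32), Igf1r, the receptor for insulin-like growth factor 1 (7.75), Osr1 (7.17), Prdm11 (7.17), Gpr176 (6.89) and Epha7 (6.89). Igf1r had the highest H3K4me3 fold of all 545, 24.7, over 5091 bp, and shared 16 bp with H3K27me3. Zranb2 shared 195 of 2135 bp at its upstream side and Ccnj 262 of 2335 bp at its upstream side. Several members of this class were thus strong H3K4me3 peaks that H3K27me3 touched at an end.

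Hox genes give cells their position along the body axis, and Hoxa11, Hoxd8 and Hoxd9 were among those at the 545 peaks and kept both marks in ASC. So did 337 of all 412 genes at the peaks. At Hoxa11 the H3K4me3 peak was 2383 bp in QSC against 7046 bp in ASC, and the share of the QSC peak under H3K27me3 was 80.1% and 43.2%. At Hoxd8 and Hoxd9, under a broad H3K27me3 peak of 213257 bp in QSC against 244150 bp in ASC, the share was 26.1% and 30.8% in QSC and 100% at both in ASC. The Hoxa11 peak and the HoxD peaks thus did not share a direction.

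Among signalling genes, 8 of the 31 Wnt list genes with QSC H3K4me3 lay at the 545 peaks. That is 25.8%, against 3.46% of all genes with QSC H3K4me3. The ligands were Wnt2, Wnt7a, Wnt7b and Wnt11, the receptors Fzd10 and Ror2, and the secreted antagonists Frzb and Sfrp1. Wnt7a, a ligand known to act on satellite cells, was the list gene with H3K27me3 alone in ASC, with a 657-bp QSC H3K4me3 peak of fold 3.99 and the nearest ASC H3K4me3 narrow peak 28740 bp away. Sfrp1 lay under H3K27me3 over 18.4% of its peak in QSC and 89.4% in ASC, and Frzb over 59.6% and 19.8%. The antagonists thus differed in direction.

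Nog, which encodes the BMP antagonist Noggin, was the 1 gene of 23 with QSC H3K4me3 on the BMP and TGF-beta list, with 35.3% of its peak under H3K27me3 in QSC and 23.3% in ASC. Fgf8, Fgf9 and Fgf15, secreted growth factors of the embryo, were the 3 of 23 on the FGF and hedgehog list, and all kept both marks. So did 337 of all 412 genes at the peaks, and these 412 were 3.46% of all genes with QSC H3K4me3. Dll4, a Notch ligand, and Hes5, a target of Notch, were the 2 of 21 on the Notch list. Their peaks lay under H3K27me3 over 50.8% and 5.43% in QSC and over 100% at both in ASC.

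Guidance genes, which steer axons and migrating cells, were divided among the classes. Of 41 with QSC H3K4me3, 11 lay at the 545 peaks (26.8%, against 3.46% of all genes with QSC H3K4me3). In ASC 6 of the 11 had both marks, beside 337 of all 412 genes at the peaks. Among the 6 were the ephrin ligands Efna3 and Efna5, the secreted Slit2 and the netrin receptor Unc5b. Epha7, an ephrin receptor, and the semaphorins Sema3c and Sema7a had H3K4me3 alone. At Epha7, 1307 of 1607 bp lay under H3K27me3 in QSC and 0 in ASC, with an ASC H3K27me3 narrow peak 855 bp away. At Sema7a the H3K4me3 peak was 1553 bp in QSC against 5866 bp in ASC, and the nearest ASC H3K27me3 narrow peak was 32103 bp away.

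Efnb3, an ephrin ligand, and Robo2, a receptor for Slit proteins, had H3K27me3 alone. The Robo2 peak was 617 bp long and had the lowest H3K4me3 fold of the 545, 2.36, with a -log10 q of 0.878, so its H3K4me3 call in QSC was itself weak. Over the 11 peaks of this list the median share under H3K27me3 was 35.1% in QSC and 23.3% in ASC, beside 42.3% and 88.8% over all 545.

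Of 36 potassium channel and neurotransmitter receptor genes with QSC H3K4me3, 10 lay at the 545 peaks, against 3.46% of all genes with QSC H3K4me3, and 9 of the 10 had both marks in ASC, beside 337 of all 412 genes at the peaks. Kcnk10, a leak channel, lay under H3K27me3 over 27.2% in QSC and 100% in ASC, and Kcnd2, a channel of the A-type current, over 4.26% and 89.7%. Kcna3, a channel known from T cells, went from 5.15% to 26.7%. Grin2c, an NMDA receptor subunit, had H3K27me3 alone, at a 299-bp peak of fold 2.72.

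Identity genes of the satellite cell and myogenic regulators lay at the 545 peaks at 2.38% and 3.85%. These shares were near the 3.46% over all genes with QSC H3K4me3. Pax3, a factor of muscle progenitors and of satellite cells in some muscles, was the 1 gene of 42 with QSC H3K4me3 on the quiescence and identity list. Its QSC H3K4me3 peak of 1497 bp, fold 8.71, lay 94.3% under H3K27me3 in QSC and 100% in ASC, where the H3K4me3 peak was 2213 bp. The other 2 of the 545 peaks in its broad H3K27me3 domain, which was 84453 bp in QSC against 84567 bp in ASC, were 1083 and 666 bp long and lay under ASC H3K27me3 over 71.5% and 97.1%. Six2, a homeobox factor, was the 1 of 26 myogenic regulators, with 10.8% of its 3199-bp peak under H3K27me3 in QSC and 81.4% in ASC.

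No sarcomere gene (of 10 with QSC H3K4me3), cyclin-dependent kinase inhibitor (of 7) or reference gene (of 19) lay at the 545 peaks. Over all genes with QSC H3K4me3 the share was 3.46%, so 0 in lists this small does not set these genes apart. Lama1, a laminin chain, was the 1 of 35 extracellular matrix genes. Atf3, Egr2 and Egr3, factors induced within minutes by stress or growth signals, were the 3 of 38 immediate early genes and had long H3K4me3 peaks of 4307, 4834 and 4964 bp. Their shares under H3K27me3 were 10.6%, 14.2% and 25.8% in QSC and 52.6%, 25.9% and 43.3% in ASC, and all 3 kept both marks. So did 337 of all 412 genes at the peaks.

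Markers of other cell types stood among the 545 peaks too. Flt1 and Kdr, the VEGF receptors of endothelium, and Sox18, an endothelial factor, were 3 of the 5 endothelial markers with QSC H3K4me3. All 3 lay wholly under H3K27me3 in ASC, and over 91.7%, 67.1% and 100% in QSC, with low H3K4me3 folds of 4.35, 5.34 and 3.47. Among all 545 peaks, 41.5% lay wholly under H3K27me3 in ASC. Osr1 was the 1 of 8 fibro-adipogenic markers and Egr2 the 1 of 7 Schwann and glial markers. No pericyte marker (of 9 with QSC H3K4me3) or immune marker (of 2) was among them. Of all genes with QSC H3K4me3, 3.46% lay at the 545 peaks. At Pecam1, Cdh5, Cldn5, Vwf and the other endothelial markers outside these 5, no QSC H3K4me3 narrow peak was called, and the part of endothelial cells in the result was not tested.

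Cdk6 is a kinase that with D-type cyclins drives entry into the cell cycle. It was the 1 of 35 cell cycle genes (2.86%, against 3.46% of all genes with QSC H3K4me3). Its QSC H3K4me3 peak was 4059 bp long with a fold of 13.8, and 601 bp at the upstream side lay under H3K27me3, within a broad H3K27me3 peak of 19130 bp. In ASC the H3K4me3 peak was 6894 bp, no H3K27me3 of either list touched the place of the QSC peak, and the nearest ASC H3K27me3 narrow peak was 199509 bp away. The broad list came within 2107 bp.

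Cdk6 was 1 of 5 places with no ASC H3K27me3 in either list, a set named after its values were seen. At Gja1, which encodes the gap junction protein connexin 43, the shared stretch in QSC was 10 bp, and the H3K4me3 peak was 2153 bp in QSC against 3801 bp in ASC. At Ank3, an ankyrin of the membrane skeleton, 376 of 1339 bp were shared, and the ASC H3K4me3 peak was 3714 bp. A place inside the record of Runx2, the master factor of bone, had an H3K4me3 fold of 15.2, shared 332 of 2643 bp, and had an ASC H3K4me3 peak of 6360 bp. The fifth, outside protein-coding records on chromosome 13, shared 188 of 648 bp. At all 5 the H3K4me3 peak was longer in ASC, as it was at 86.7% of all QSC H3K4me3 peaks called in ASC.

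Conversely, 2 places had no ASC H3K4me3 in either list. At Dusp26, a phosphatase, the QSC H3K4me3 peak was 343 bp with a fold of 3.40. The other, on chromosome 2 outside protein-coding records, had a fold of 2.44 over 1269 bp, and this stretch of the mouse genome is known to gather excess reads in many assays.

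Where H3K4me3 was called in ASC, the ASC peak was longer than the QSC peak at 388 of 493 places (78.7%, against 86.7% of all QSC H3K4me3 peaks and 87.0% of the others). The median log2 ratio of lengths was 0.43, beside 0.53 at the others, so lengthening was general in these lists. More than a 2-fold lengthening was found at 18.1% of the 493 and 17.1% of the others.

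The most lengthened and shortened peaks were picked after their values were seen. The ASC length is that of the longest ASC peak touching the QSC peak. At 50 of the 545 places an ASC peak spanned more than 1 QSC peak, and 30 of the QSC peaks touched more than 1 ASC peak, so part of the length ratios reflects how the stretch was divided into peaks. The bases under H3K4me3 narrow peaks within 5 kb of the summit do not depend on that division. At Prdm1, the repressor Blimp1, they numbered 425 in QSC and 3351 in ASC. At Nptx1, a neuronal pentraxin, where 1 ASC peak spanned both QSC peaks, they were 1953 and 3939. At Esrp2, an epithelial splicing factor, with the same arrangement, they were 1281 and 3061. All 3 of these genes had more H3K4me3 bases in ASC. At Vstm2b the bases were 1218 in QSC and 425 in ASC. At C1qtnf4, whose QSC peak touched more than 1 ASC peak, they were 1847 and 1240, and at Comp, a cartilage matrix protein, 1876 and 832. At Vstm2b and Comp the whole QSC peak lay under H3K27me3 in ASC, as it did at 226 of all 545 (41.5%).

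Several microRNA genes lay at these places. A hairpin of the RefSeq table lay within 1 kb of one of the 545 peaks for 9 microRNA genes of 1005 hairpins in that table. The 9 do not include Mir124a-3, which is described below from its gene record. The number near the other H3K4me3 peaks is not given here, so the 9 are listed without a comparison. The mature forms of 3 are shown because they belong to microRNA families of well-known role, with the seed (bases 2 to 8) in capitals.
mmu-miR-9-5p (chr3:88215613-88215635, plus strand): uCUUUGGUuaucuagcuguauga
mmu-miR-17-5p (chr14:115043684-115043706, plus strand): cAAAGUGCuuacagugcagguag
mmu-miR-18a-5p (chr14:115043867-115043889, plus strand): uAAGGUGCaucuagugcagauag

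Mir9-1 encodes miR-9, a microRNA of neural progenitors, and lay inside a QSC H3K4me3 peak of 1000 bp that was wholly under H3K27me3 in QSC and in ASC, where the H3K4me3 peak was 1310 bp. Mir17 and Mir18 belong to a cluster known to promote proliferation and have different seeds. Their hairpins lay 688 and 868 bp beyond the end of a 2848-bp peak of fold 10.6 that shared 111 bp with H3K27me3 in QSC and 0 in ASC, with H3K4me3 alone over 2605 bp. Mir124a-3, which encodes the neuronal miR-124, had 2 of the 545 peaks, of 635 and 731 bp, both wholly under H3K27me3 in both states, and a peak at Mir124a-1hg was under it over 100% in ASC.

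Grb10, an imprinted gene whose product restrains growth, had 2 of the 545 peaks, chosen here after their values were seen. Their QSC H3K4me3 peaks of 767 and 1947 bp lay under H3K27me3 over 100% and 47.1% in QSC and over 98.7% and 97.2% in ASC. The peak at Hotair, a noncoding gene of the HoxC cluster, shared 4 of 1037 bp in QSC and had H3K4me3 alone in ASC, over 2894 bp.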

How the data were processed

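H3K4me3 and H3K27me3 were assayed by chromatin immunoprecipitation with tagmentation (ChIPmentation) in 16 samples, per the labels' protocols, and each title gave its group. The submitters' processing notes name MACS2 2.1.1, Bowtie2 2.3.2, Trimmomatic 0.36, bcl2fastq 2.19, SAMtools 1.3, bedtools 2.26.0 and Picard 2.9.2, with the build mm10, and how they were set is not given in the sources used here. The authors deposited 8 peak lists with a fold over background, which is a linear ratio, and a -log10 p-value and -log10 q-value for each peak. The deposited narrow lists also hold the summit's offset from the peak start. Each list is named for both replicates of a group and is treated as pooled, so no SD, interval or test over samples exists. Depth cannot be read from peak lists and is unknown. The signal tracks were not analysed here.

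Peaks were intersected with Python 3.11.15 and pandas 2.3.3, and a shared place was at least 1 bp of overlap unless another setting is named. The overlap code was tested on simulated intervals and gave the same pairs as a brute-force count and bedtools. Gene ends came from RefSeq on GRCm38.p6, the assembly behind mm10 coordinates. A stranded start was known for 79.9% of protein-coding genes, and for the rest both ends of the record were used. All 879 symbols of 23 gene lists matched. The peaks and the gene lists were chosen with earlier results of these data known.

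Genes were named by this rule: in each class of ASC calls, the 10 with the highest QSC H3K27me3 fold at a protein-coding gene with a non-provisional symbol, the 10 peaks with most shared bases, 5 peaks on each side of the edge of the rule, and list genes, first those without both marks in ASC. Genes outside it are marked in the text. A few genes that the rule names are not reported here. The settings varied were another overlap, the H3K4me3 summit, broad lists, thresholds on q and fold, lists of equal number or equal covered bases made by dropping peaks of the lowest -log10 p, a distance of 1 kb, and other gene windows.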

Additional observations from a re-analysis of the deposited data

How the results depend on the processing

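All values were counted on 1 pooled list per state and mark, so no difference has a replicate check, and depth per library is unknown. No paired analysis was possible because the replicates of each group share a peak list. A share of peaks was taken to have moved when it left the 95% Wilson interval of the value first given, which treats peaks as independent, and a count when it changed more than 1.5 times. Taking the H3K4me3 summit in place of any shared base left 225 places, with H3K4me3 called in ASC at 82.7%, both marks at 72.4%, and H3K27me3 at 3.79% of the others. Broad H3K27me3 lists gave 1674 places, with 92.9%, 84.1% and 9.33%. A -log10 q of at least 5 left 352 places, with H3K4me3 at 95.2% and both at 86.7%. Equal numbers of peaks gave H3K4me3 at 85.3%, both at 74.7% and H3K27me3 at 5.39% of the others. Equal covered bases gave H3K4me3 at 12.5%, both at 6.97%, H3K27me3 at 86.4% and at 4.01% of the others. The ASC broad H3K4me3 list gave H3K4me3 at 99.6% and both at 89.7%. An ASC peak within 1 kb counted as a call gave H3K27me3 at 96.3%, both at 88.4% and H3K27me3 at 10.6% of the others. The other 24 values stayed within these limits, among them those with 200 bp of overlap and those with an H3K27me3 fold of at least 3. The number of genes, 412, was 391 with windows of 500 bp, 437 with 2.5 kb and 545 over all annotated genes. Why equal covered bases removed so many H3K4me3 calls is in the way it was made: 7876 of 15869 ASC peaks were kept, by -log10 p. Neither mark was called at 44 places there, at 3 with broad lists, at 1 with the summit or an H3K27me3 fold of at least 3, and at 0 under the other settings.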

Other observations

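Seen from ASC, the places with both marks were more numerous. Of 15869 ASC H3K4me3 narrow peaks, 1909 (12.0%) overlapped an ASC H3K27me3 narrow peak. Of these, 456 (23.9%) lay at one of the 545 QSC places, 875 at another QSC H3K4me3 narrow peak and 578 at no QSC H3K4me3 narrow peak. The ASC lists of both marks cover more bases than the QSC lists, and the part of list size in these numbers was not tested.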
